A study of Arabidopsis thaliana with 15 samples.

Results

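The double knockout nhx5-1/nhx6-1 of Arabidopsis thaliana was compared with wild type in rosette leaves, with 3 arrays of each genotype, 6 of the 15 arrays of the series. The arrays were taken by their genotype label, and no measured value was used to choose them. Its nhx5-1 allele is the insertion line WiscDsLox345-348M8, and its nhx6-1 allele is SALK_113129. The wild type carried neither insertion, and all plants were labelled as accession colombia. Plants were 4 weeks old and had grown on soil in 8 h of light and 16 h of darkness. The other arrays are of a second double knockout, nhx5-2/nhx6-2, made with another insertion in each gene (GABI-09H405 and SALK_100042), and of the single knockouts nhx5-2 and nhx6-2. RNA was biotin-labelled from 6 µg and hybridized to an Affymetrix Arabidopsis genome array. The labels call the replicates biological but do not say how many plants each holds, and nhx5-1/nhx6-1 is 1 pair of alleles.

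NHX5 and NHX6 are antiporters that move sodium or potassium in exchange for protons across the membranes of the Golgi, the trans-Golgi network and the prevacuolar compartment. They raise the pH inside these compartments, and plants that lack both are small and sort some proteins to the vacuole poorly. The comparison asks what the leaf transcriptome looks like when both are disrupted by this pair of alleles. Neither NHX5 nor NHX6 had a probe set in the annotation used here, so the genotype labels could not be checked on the targeted transcripts.

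The deposited value of a probe set is a log-like score of unknown base. It was used as it stands, and every difference below is nhx5-1/nhx6-1 minus wild type in these units unless another pair is named. On spike-ins of known nominal concentration a doubling was worth 0.681 units. The size of a difference divided by that yardstick is a number of doublings, and the folds below express those doublings as a fold. Each difference carries its standard error (SE) from limma, fitted over all 15 arrays, and p-values were adjusted over 22746 probe sets (Benjamini-Hochberg), with 0.05 as the threshold. The words rose and fell are kept for differences past that threshold. On leaf identity, all 7 measured nuclear photosynthesis genes lay at or above percentile 86.6 of level over the 6 arrays, 6 of them above percentile 90. Markers of other cell types were tested only for a difference between the genotypes, which does not show whether they are present. The guard cell regulators SPCH, MUTE and FMA, the root hair expansins EXPA7 and EXPA18 and the meristem peptide gene CLV3 did not pass. The trichome marker TRY fell (-0.32 ± 0.07). In leaf RNA, fewer cells of a type and less RNA per cell cannot be told apart.

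In nhx5-1/nhx6-1, 2736 probe sets changed, 12.0% of those tested. Of these, 1166 rose (5.13%) and 1570 fell (6.90%), and 1409 carried exactly 1 annotated gene. Most of the changes were small. The median size of a changed difference was 0.36 units, against 0.08 for all probe sets, and 95 probe sets changed by 1 unit or more, 42 higher and 53 lower. The values of the 6 arrays separated by genotype without overlap at 26.3% of all probe sets. The 15 largest rises and the 15 largest falls with 1 annotated gene and no overlap are described first, ordered by what their products do.

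The deepest falls were in 2 genes of the HAD superfamily that encode acid phosphatase-like proteins. AT5G44020 had scores of 0.41, -0.17 and -0.12 in nhx5-1/nhx6-1, against 2.27, 1.99 and 2.40 in wild type, a difference of -2.18 ± 0.16 (SE, n = 3 each), which is 9.18-fold on the yardstick (adjusted p = 6.24e-06). AT1G04040 had -0.22, -0.13 and -0.22 in nhx5-1/nhx6-1, against 1.70, 1.44 and 1.88 in wild type (-1.86 ± 0.13, 6.66-fold, adjusted p = 5.35e-06). For both genes the lowest wild type array was 1.58 units above the highest array of the double knockout.

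A second group of falls encodes secreted proteins of the wall and surface. AT3G16670, of the Ole e 1 and extensin family, had 0.49, -0.02 and 0.49 in nhx5-1/nhx6-1, against 2.19, 1.87 and 2.48 in wild type (-1.86 ± 0.16, 6.62-fold, adjusted p = 3.29e-05). AT1G23205, a member of the invertase and pectin methylesterase inhibitor family, had -0.08, -0.45 and -0.12, against 1.25, 0.86 and 1.50 in wild type (-1.42 ± 0.15). Both genes were lowest among the wild type arrays in replicate 2, and still well clear of the double knockout there. The GDSL lipase gene AT1G29660 had 1.91, 2.01 and 1.71 in nhx5-1/nhx6-1, against 3.35, 2.92 and 3.51 in wild type (-1.38 ± 0.14, 4.07-fold). A second GDSL lipase gene, AT3G16370, fell by 1.03 ± 0.11, with 2.08, 2.47 and 2.08 in nhx5-1/nhx6-1, against 3.34, 3.10 and 3.27 in wild type. AT4G16980, an arabinogalactan protein gene, was among the brightest of the falls, at 2.99, 2.64 and 2.53 in nhx5-1/nhx6-1, against 4.30, 3.66 and 4.26 in wild type (-1.35 ± 0.16). Its second probe set was dim, with means of -0.39 in both genotypes and a difference of -0.01, so the 2 probe sets of this gene disagree.

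Several other falls were in redox, sugar and light-related genes and in a heat shock cognate. MSRB6, a methionine sulfoxide reductase, had 0.98, 0.85 and 0.50 in nhx5-1/nhx6-1, against 2.08, 2.36 and 2.09 in wild type (-1.40 ± 0.23, 4.17-fold, adjusted p = 0.00171). The glutaredoxin gene AT1G06830 had 0.00, 0.00 and -0.24, against 1.04, 1.08 and 1.10 in wild type (-1.15 ± 0.08, 3.23-fold). SWEET2, a sugar transporter of the vacuolar membrane, had 0.46, 0.38 and 0.26 in nhx5-1/nhx6-1, against 1.59, 1.46 and 1.42 in wild type (-1.12 ± 0.07, adjusted p = 3.42e-06). In each of these 3 genes the gap between the genotypes was wider than the whole spread within either. CHIL, a chalcone isomerase-like protein of the flavonoid pathway, had 0.00, 0.55 and 0.03 in nhx5-1/nhx6-1, against 1.39, 1.32 and 1.51 in wild type (-1.21 ± 0.12). AT3G09440, a cytosolic heat shock cognate of the HSP70 family, had 2.11, 2.14 and 2.15 in the double knockout, against 3.39, 3.01 and 3.35 in wild type (-1.11 ± 0.11).

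AT2G41090, a calmodulin-like protein, was the least even of the falls. It had 2.84, 2.24 and 3.42 in nhx5-1/nhx6-1, against 4.07, 3.75 and 3.94 in wild type (-1.09 ± 0.30, adjusted p = 0.0319), so replicate 3 lay 0.34 units below the lowest wild type array and 1.18 units above replicate 2 of its own group. It passed under 8 of 18 other ways of processing the arrays. AT3G56290 (-1.18 ± 0.11) and AT3G14395 (-1.10 ± 0.08) completed the 15 falls, and no product is named for them here.

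The largest rise was CCL, a transcript named for its likeness to the clock-regulated gene CCR. It had 2.80, 2.92 and 2.74 in nhx5-1/nhx6-1, against 0.98, 1.54 and 0.88 in wild type (1.69 ± 0.15, 5.58-fold, adjusted p = 3.68e-05). AT2G46600, a calcium-binding EF-hand protein, had 2.76, 2.92 and 2.18 in nhx5-1/nhx6-1, against 0.96, 1.50 and 0.92 in wild type (1.49 ± 0.20). In both genes wild type replicate 2 was the highest of its group. Across the 15 leading rises that array was the highest wild type array for 12 genes, and replicate 3 was the lowest array of the double knockout for 11.

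A group of rises encodes proteins of protein turnover and stress signalling. PUB19, a U-box ubiquitin ligase that acts in the abscisic acid and drought response, had 0.59, 1.79 and 0.91 in nhx5-1/nhx6-1, against -0.29, -0.22 and -0.40 in wild type (1.40 ± 0.33, 4.14-fold, adjusted p = 0.015). Its double knockout arrays were far apart and its wild type arrays close together. RING1, a RING finger ubiquitin ligase, had 1.46, 1.82 and 1.80 in nhx5-1/nhx6-1, against 0.61, 0.73 and 0.45 in wild type (1.10 ± 0.13). AT3G05640, a protein phosphatase of the PP2C family, had 0.86, 1.42 and 1.05, against -0.24, -0.22 and -0.21 in wild type (1.33 ± 0.14, 3.88-fold). AT3G62550, of the universal stress protein family, had 1.79, 1.55 and 1.38, against 0.05, 0.64 and -0.01 in wild type (1.35 ± 0.15). ALDH7B4, an aldehyde dehydrogenase induced by drought and salt, had 1.76, 2.19 and 1.43 in nhx5-1/nhx6-1, against 0.42, 0.78 and 0.46 in wild type (1.24 ± 0.30, adjusted p = 0.0157). In nhx6-2 it had 0.88, 0.76 and 2.24, with replicate 3 the high array, while in nhx5-1/nhx6-1 and wild type replicate 2 was the highest.

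The most even of the rises was AT4G01390, of the TRAF-like (MATH domain) family, with 0.96, 1.13 and 0.76 in nhx5-1/nhx6-1, against -0.46, -0.30 and -0.54 in wild type (1.38 ± 0.09, 4.09-fold, adjusted p = 4.18e-06). AT1G68600, of the aluminium-activated malate transporter family, had 2.20, 2.15 and 1.68 in nhx5-1/nhx6-1, against 0.52, 1.12 and 0.56 in wild type (1.28 ± 0.19). AT1G62510, of the lipid transfer and seed storage family, had 2.84, 3.25 and 2.47, against 1.81, 1.77 and 1.56 in wild type (1.14 ± 0.17). The nearest arrays of the 2 genotypes were 1.06 units apart for AT4G01390, 0.56 for AT1G68600 and 0.66 for AT1G62510.

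In 2 secreted or sugar-binding proteins the rise rested on uneven arrays. AT1G52000, a jacalin-related lectin, had 1.56, 2.05 and 0.55 in nhx5-1/nhx6-1, against -0.35, 0.43 and -0.10 in wild type (1.39 ± 0.38, adjusted p = 0.0289), and its replicate 3 lay just above the highest wild type array. AT2G43550, a small defensin-like protein, had 2.75, 1.64 and 1.21, against 0.27, 1.02 and 0.70 in wild type (1.20 ± 0.36, adjusted p = 0.0455). They passed under 10 and 8 of the 18 other ways of processing. AT2G15960 (1.45 ± 0.14), AT1G27030 (1.40 ± 0.12) and AT1G76960 (1.33 ± 0.24) completed the 15 rises, and no product is named for them here.

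**Figure D1:**
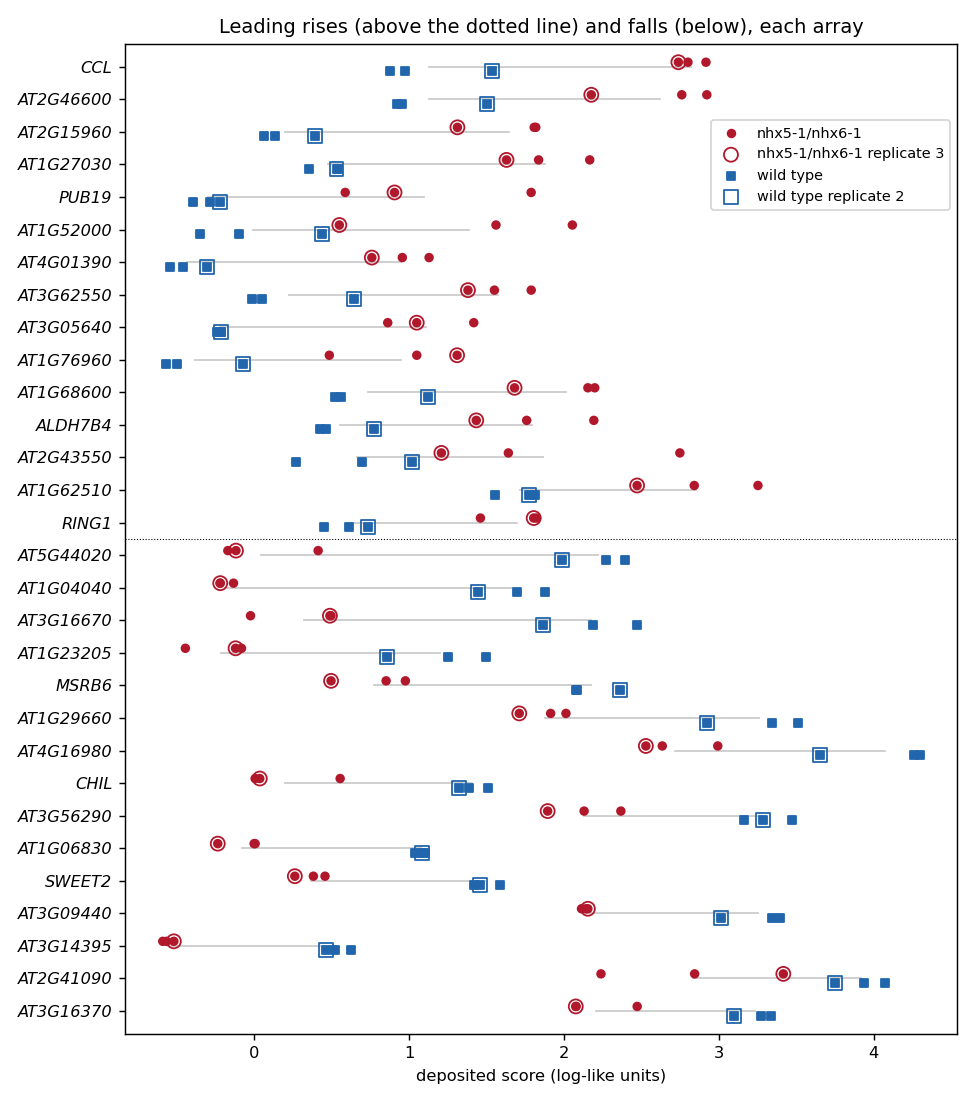
Deposited score (horizontal axis, log-like units) of the 15 leading rises and 15 leading falls on each array, with nhx5-1/nhx6-1 as red circles above wild type as blue squares and grey lines joining the group means. Open rings mark replicate 3 of nhx5-1/nhx6-1, the lowest of its group in 11 of 15 rises, and open squares mark wild type replicate 2, the highest of its group in 12 of 15 rises.

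Gene groups bearing on endosomes, the vacuole and stress were then read by their members. Measured genes are those with a probe set of their own in the annotation, a minority of most lists, and each count below is to be set beside the 5.13% of all probe sets that rose and the 6.90% that fell. Over all probe sets the median difference was 0.01. The 3′ minus 5′ control signal, which separated the genotypes, was also entered in the model as a covariate. With it 1 member of all the lists passed, HYH of the flavonoid list, and the count of every other list was 0. The covariate also widened the SE of every leading gene. Below, the mapping to control levels stands for arrays mapped linearly to one level of no-target controls and spike-ins, an alternative added after the data were seen.

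All autophagy genes that passed were higher in nhx5-1/nhx6-1. Autophagy wraps cytoplasm in membranes that carry ATG8 and delivers it to the vacuole. Of 15 measured genes 8 rose and 0 fell, with a median difference of 0.32. Of the 8, 7 separated without overlap, as did 1377 of all 1409 changed probe sets with 1 gene. ATG8C had 0.97, 1.10 and 1.23 in nhx5-1/nhx6-1, against 0.40, 0.75 and 0.43 in wild type (0.58 ± 0.09, 1.80-fold, adjusted p = 0.00122). ATG8G had -0.06, 0.12 and 0.06, against -0.37, -0.24 and -0.40 in wild type (0.38 ± 0.05, adjusted p = 0.000737). ATG8D rose by 0.35 ± 0.07, APG8A by 0.40 and ATG8F by 0.45. ATG3, which conjugates ATG8 to lipid, rose by 0.30, as did the listed kinase genes AT2G37840 (0.32 ± 0.06) and AT3G61960 (0.35). The ATG8 family was not uniform, since ATG8E (-0.02), ATG8H (0.04), ATG8B (0.21) and APG8H (0.38) did not pass. The second probe set of AT2G37840 was dim in both genotypes, with means of -0.39 in nhx5-1/nhx6-1 and -0.51 in wild type. The count was 8 without replicate 3 of nhx5-1/nhx6-1, and 5 without its replicate 2, with wild type replicate 1 or 3 left out singly, with the 6 compared arrays alone or after the mapping to control levels.

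Among 7 measured vacuolar proteases, which process and degrade proteins in the vacuole, 2 rose and 1 fell. BETA-VPE, a vacuolar processing enzyme, had 0.32, 0.93 and 0.45 in nhx5-1/nhx6-1, against -0.11, -0.04 and -0.19 in wild type (0.68 ± 0.12, 2.00-fold, adjusted p = 0.00248). GAMMA-VPE, the form abundant in vegetative tissue, had 2.02, 2.26 and 1.84, against 1.28, 1.71 and 1.25 in wild type (0.63 ± 0.14). The arrays of both separated, for GAMMA-VPE by 0.13 units between replicate 3 of the double knockout and wild type replicate 2. The saposin-type aspartic protease gene AT1G62290 fell by 0.32 ± 0.06, while APA1 (0.24), ALPHA-VPE (0.08), DELTA-VPE (-0.04) and AT4G04460 (-0.05) did not pass. The 3 calls became 1 with the 6 compared arrays alone, and 2 with wild type replicate 1 or 3 left out singly or after the mapping to control levels.

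Genes of the membrane machinery around the antiporters were read by list. Of 9 measured subunits of the vacuolar proton pump, which acidifies the compartments that NHX5 and NHX6 serve, 1 fell and 0 rose, with a median of -0.11. The one that fell, AT4G26710, a small membrane subunit, had 2.26, 2.33 and 2.03 in nhx5-1/nhx6-1, against 2.54, 2.68 and 2.63 in wild type (-0.41 ± 0.09, adjusted p = 0.0108). It passed with replicate 3 left out (-0.32) but not after the mapping to control levels (-0.16), with the 3′ minus 5′ covariate (-0.62) or with replicate 3 and wild type replicate 2 both left out (-0.29). VHA-A1, the membrane subunit isoform of the trans-Golgi network, differed by -0.07 and the vacuolar membrane isoforms VHA-A2 and VHA-A3 by 0.14 and -0.15, none past the threshold. Of 3 measured trafficking genes, AT1G09330, which encodes ECHIDNA, a protein of the trans-Golgi network, had 0.93, 0.87 and 0.71, against 1.05, 1.14 and 1.07 in wild type (-0.25 ± 0.07, adjusted p = 0.0293), and it did not pass when replicate 3 of nhx5-1/nhx6-1 or wild type replicate 1, 2 or 3 was left out, with the 6 compared arrays alone or after the mapping to control levels (-0.13). The endosomal GTPase ARA6 differed by -0.08 and AT2G28390, which encodes MON1, by 0.14, neither past the threshold. Of 5 measured genes of folding in the endoplasmic reticulum none passed, although all 5 differences were positive, the largest being 0.43 for ATERDJ3B. Of cation antiporters other than NHX5 and NHX6, only CHX20 was measured (0.03, adjusted p = 0.889).

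Among lists with at least 3 measured genes, the abscisic acid, drought and cold list had the highest median difference, 0.99, with 4 of 6 measured genes higher and 0 lower. The lists were chosen with earlier results of these data known, so this rank is a description and not a test. Besides PUB19 and ALDH7B4, the dehydrin gene COR47 had 1.85, 2.57 and 1.78 in nhx5-1/nhx6-1, against 0.98, 1.29 and 0.85 in wild type (1.03 ± 0.25, 2.85-fold, adjusted p = 0.0169). COR15B, which encodes a chloroplast protein that protects membranes in the cold, had 2.03, 2.31 and 1.81, against 0.96, 1.64 and 0.95 in wild type (0.87 ± 0.20). In both genes replicate 2 was the highest array in either genotype. The single knockout nhx6-2 had 1.11, 1.16 and 2.14 for COR47 and 0.69, 0.71 and 1.38 for COR15B, with replicate 3 the high array. COR15A did not pass, at 3.16, 3.57 and 2.89 against 2.18, 2.63 and 1.94 in wild type (0.96, adjusted p = 0.0803), nor did LTI30 (0.37). The count of 4 became 1 without replicate 2 of nhx5-1/nhx6-1 and 0 without wild type replicate 1 or without wild type replicate 3. HIS1-3, a linker histone known to be induced by drought, was the one member of 5 measured histone genes that rose, at 0.32, 0.65 and 0.11 in nhx5-1/nhx6-1, against -0.65, -0.59 and -0.67 in wild type (1.00 ± 0.10, adjusted p = 6.06e-05).

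With all arrays in the model, the wall and flavonoid genes that passed were all lower. Of 12 measured cell wall loosening genes 4 fell and 0 rose. EXLA1, an expansin-like protein, had -0.51, -0.24 and -0.43 in nhx5-1/nhx6-1, against 0.69, 0.33 and 0.70 in wild type (-0.97 ± 0.11, 2.67-fold, adjusted p = 0.00012). EXGT-A3, a xyloglucan endotransglucosylase, fell by 0.58 ± 0.12, EXLB1 by 0.39 ± 0.12 and EXLA2 by 0.24 ± 0.07. The last 2 were near the threshold (adjusted p = 0.0439 and 0.0443 in limma), and the EXLA2 arrays of the genotypes overlapped. EXLB1 passed under 7 and EXLA2 under 11 of the 18 other ways of processing. The classical expansin genes EXPA4, EXPA8 and EXPA15 differed by -0.12, 0.23 and -0.06 and did not pass. The count of 4 was 1 with the 6 compared arrays alone or after the mapping to control levels, and 2 without replicate 1 of nhx5-1/nhx6-1, without wild type replicate 1 or without wild type replicate 3.

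Of 7 measured flavonoid and anthocyanin genes 3 fell. Besides CHIL, HYH, a light-signalling transcription factor related to HY5, had -0.25, -0.12 and -0.28 in nhx5-1/nhx6-1, against 0.63, 0.84 and 0.65 in wild type (-0.92 ± 0.07, 2.55-fold, adjusted p = 6.24e-06). UGT78D2, a flavonoid glucosyltransferase, had 0.79, 0.72 and 0.13, against 1.08 on each wild type array (-0.54 ± 0.13), and its difference was -0.33 without replicate 3. The anthocyanin enzymes DFR (0.35), UF3GT (0.38) and AT4G14090 (0.34) lay on the other side of 0 and did not pass. Without replicate 3 of nhx5-1/nhx6-1, 6 of the 7 passed in one direction or the other, which is not a count of falls. Of the 7 nuclear photosynthesis genes 1 fell, LHCB4.3, a minor antenna protein, with 0.20, 0.54 and 0.40 in nhx5-1/nhx6-1, against 1.43, 1.02 and 1.36 in wild type (-0.89 ± 0.13). SBPASE (-0.40), PRK (-0.37) and RCA (-0.31) did not pass. For RCA wild type replicate 2, at 4.96, was below all 3 double knockout arrays, while the other wild type arrays were above them. Leaving that array out made the count in this list 5, and leaving out replicate 1 of nhx5-1/nhx6-1 made it 3.

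Organelle-encoded genes that passed were all higher. Of 69 measured chloroplast-encoded genes 8 rose and 0 fell (median 0.28), and of 16 mitochondrion-encoded genes 6 rose and 0 fell (median 0.17). psbA, the D1 protein of photosystem II, had 2.14, 1.97 and 2.49 in nhx5-1/nhx6-1, against 1.36, 0.75 and 1.44 in wild type (1.02 ± 0.19, 2.82-fold, adjusted p = 0.00384). The polymerase subunit gene rpoC1 rose by 0.87 ± 0.24, psbD by 0.72 ± 0.20 and psaA by 0.49 ± 0.12. nad4, a subunit of mitochondrial complex I, had 0.66, 0.68 and 0.55, against 0.13, -0.15 and 0.14 in wild type (0.59 ± 0.11), and nad9 rose by 0.37 ± 0.05. The chloroplast count moved widely with single arrays, to 2 without replicate 1 of nhx5-1/nhx6-1, 15 without its replicate 2 and 4 without its replicate 3, and to 3, 2 and 5 without wild type replicate 1, 2 and 3. It was 1 with the 6 compared arrays alone or after the mapping to control levels, and 4 with arrays shifted to one median. The mitochondrial count was 3 with the 6 compared arrays alone or after that mapping, and 4 without wild type replicate 1 or without wild type replicate 2.

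The smaller lists held 0 to 3 calls each. In the low sugar list MCCA and IVD, enzymes of leucine breakdown, rose by 0.44 ± 0.05 and 0.25 ± 0.07 among 3 measured genes, and the count was 1 when replicate 1 or 2 of nhx5-1/nhx6-1 or wild type replicate 1 or 3 was left out. Both measured clock genes rose, CCL and GI (GIGANTEA, 0.33 ± 0.07). BHLH101, an iron-deficiency transcription factor, rose by 0.24 ± 0.06 among 2 measured, and was not past the threshold without wild type replicate 1 or without wild type replicate 3. TRY, a regulator of leaf hairs and the one measured trichome marker, had 0.29, 0.31 and 0.30 in nhx5-1/nhx6-1, against 0.55, 0.64 and 0.67 in wild type (-0.32 ± 0.07), and did not pass without wild type replicate 3. Of 24 measured cytochrome P450 genes CYP71B26 rose (0.68 ± 0.14), and the count was 4 without replicate 3 of nhx5-1/nhx6-1 and 2 without wild type replicate 2. Of 13 measured glutathione transferases GSTU26 rose (0.21 ± 0.04) and GSTU23 (-0.38 ± 0.07) and GSTU27 (-0.60 ± 0.12) fell, and of 4 pentatricopeptide repeat genes PPR336 fell by 0.37 ± 0.07. With the 6 compared arrays alone the counts were 1 in the low sugar and clock lists and 0 in the iron and cytochrome P450 lists, and after the mapping to control levels they were 1 in the low sugar list and 0 for iron, trichomes, glutathione transferases and pentatricopeptide repeat genes. Among 3 cytosolic heat shock genes AT3G09440 was the only one past the threshold. None passed among the listed 7 WRKY factors, 4 pectin methylesterases and inhibitors, 3 auxin genes, 2 genes each of glucosinolates, touch responses and glutaredoxins, and the 1 measured gene each of salicylic acid and defence, jasmonate, senescence and aquaporins. Families were matched by gene name, so genes known only by locus number could be missed. The glutaredoxin gene AT1G06830 and the inhibitor gene AT1G23205, both among the leading falls, are outside these lists.

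**Figure D2:**
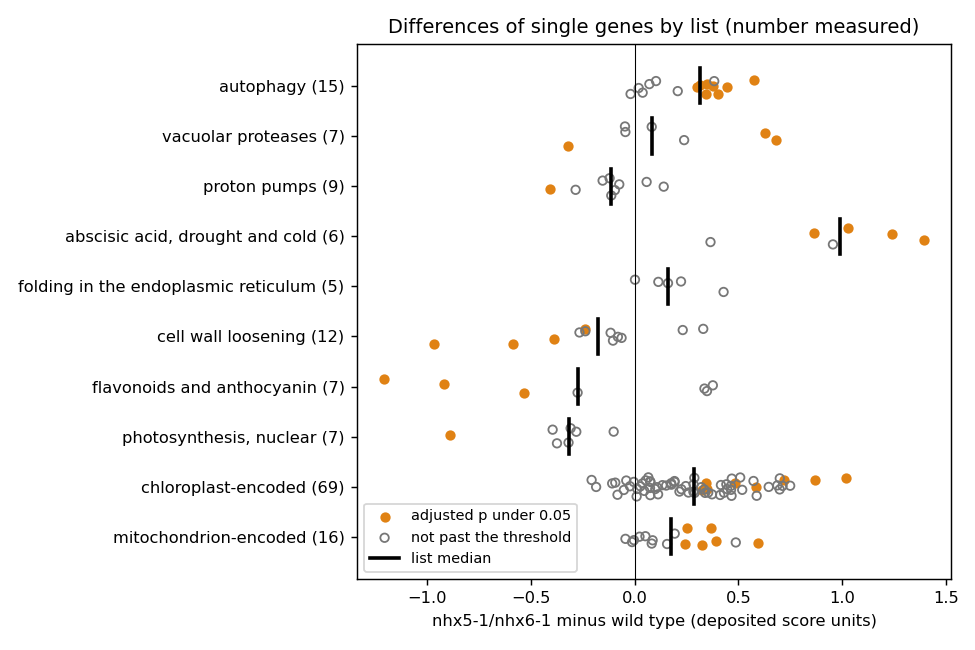
Difference nhx5-1/nhx6-1 minus wild type (horizontal axis, deposited score units) for each measured gene of 10 lists, with the number measured in brackets, filled points past the threshold, open points not past it, and a black bar at the list median. The medians were 0.32 for autophagy, 0.99 for abscisic acid, drought and cold, and -0.32 for nuclear photosynthesis; vertical scatter within a list has no meaning.

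The arrays themselves differed in ways that touch these results. Replicate 3 of nhx5-1/nhx6-1 had a spread over probe sets of 0.762 (SD), against 0.876 and 0.888 for replicates 1 and 2, and 0.883, 0.893 and 0.880 in wild type. Its controls with no target in the sample had a median of -0.57, against -0.77 and -0.81 in the other nhx5-1/nhx6-1 arrays, and it correlated at 0.963 and 0.957 with those arrays, which correlated at 0.988 with each other (across probe sets, which are not replicates). The array was compressed at both ends: its median gap to the mean of replicates 1 and 2 over 4 equal groups of probe sets ordered by level was 0.14 and 0.07 units in the dimmer groups, and -0.09 and -0.24 in the brighter ones. It was the lowest of the double knockout arrays at 1226 of the 1570 probe sets that fell and at 616 of the 1166 that rose.

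Leaving replicate 3 out turned the balance of rises and falls. Without it 1662 probe sets rose and 1210 fell, against 1166 and 1570 with it. Of the probe sets called with all arrays, 1010 of the 1166 rises and 1091 of the 1570 falls were also called without it, and all kept their sign. In the brightest of these groups 682 rose and 741 fell without replicate 3, against 418 and 1059 with all arrays, and in the next brightest 802 rose and 357 fell, against 594 and 416. All 30 leading genes passed without it. With every array shifted to one median, 629 rose and 1994 fell, and with one median and SD 1098 rose and 2270 fell.

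Among wild type arrays, replicates 1 and 3 correlated at 0.997 and replicate 2 at 0.988 and 0.987 with them. The mean score of the hybridization spike-ins, meant to be added in equal amounts, was 2.15, 2.14 and 2.14 in nhx5-1/nhx6-1, against 2.56, 2.09 and 2.50 in wild type, so wild type replicates 1 and 3 stood above replicate 2 and all the double knockout arrays. Wild type replicate 2 was the highest of its group at 786 of the 1166 rises, nearest to the double knockout. At the falls it was the wild type array nearest to the double knockout in 682 of 1570. After the mapping to control levels 346 probe sets rose and 177 fell, and 27 of the 30 leading genes passed. The 3 that did not were AT1G52000, AT2G43550 and AT2G41090. Without wild type replicate 1 the rises and falls were 530 and 949, and without wild type replicate 3 they were 534 and 965. Leaving out wild type replicate 2 gave 1074 rises and 1238 falls.

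The 3′ control probe sets stood further above the 5′ ones in nhx5-1/nhx6-1. The 3′ minus 5′ signal of the actin and GAPDH control probe sets, a measure of RNA integrity and labelling length, was 2.36, 2.27 and 2.40 in nhx5-1/nhx6-1, against 1.79, 1.97 and 1.83 in wild type. The groups did not overlap, and the difference of 0.480 had p = 0.1 in an exact two-sided permutation test, the smallest p that 3 against 3 arrays allow. In all 9 other arrays of the series the signal lay between 1.45 and 2.14. For ubiquitin the signal averaged 0.66 ± 0.06 in nhx5-1/nhx6-1 and 0.55 ± 0.14 in wild type (SD, n = 3 each, exact permutation p = 0.3). As the signal separates the genotypes, signal and genotype cannot be told apart. With this signal as covariate in limma 6 probe sets rose and 18 fell, while 1160 of the 1166 rises and 1556 of the 1570 falls kept their sign. The covariate widened the SE of every leading gene, and the differences moved by unlike amounts. HIS1-3 went from 1.00 ± 0.10 to 1.00 ± 0.20 (adjusted p = 0.0942 in limma) and AT5G44020 from -2.18 ± 0.16 to -2.04 ± 0.32. AT1G52000 went from 1.39 ± 0.38 to 0.12 ± 0.63.

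**Figure D3:**
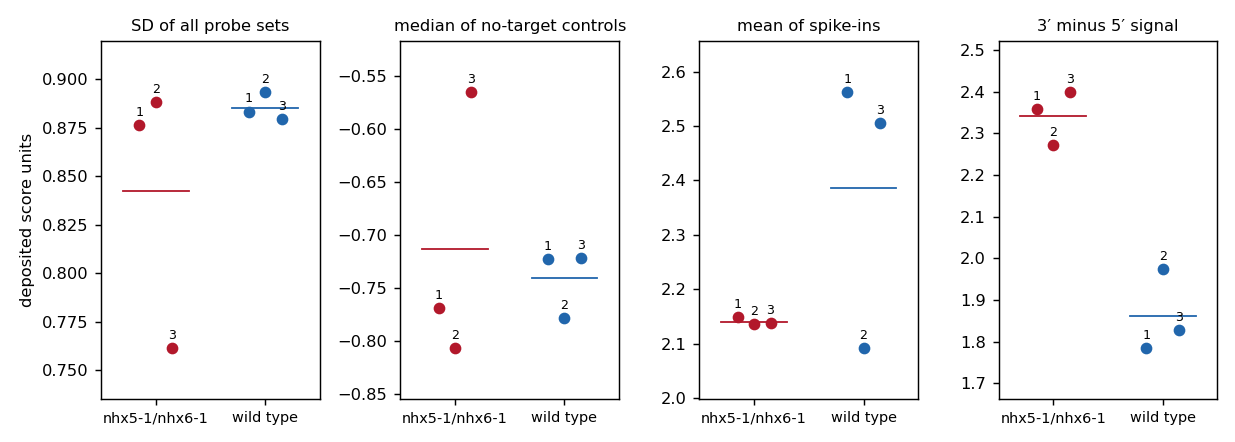
Control measures of each array in deposited score units (vertical axes, which do not start at 0), with nhx5-1/nhx6-1 in red left of wild type in blue, replicate numbers beside the points and a line at the group mean. Replicate 3 of nhx5-1/nhx6-1 had the lowest SD (0.762), wild type replicates 1 and 3 had the highest spike-in means (2.56 and 2.50), and all 3 arrays of nhx5-1/nhx6-1 had a higher 3′ minus 5′ signal than any wild type array.

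**Figure D4:**
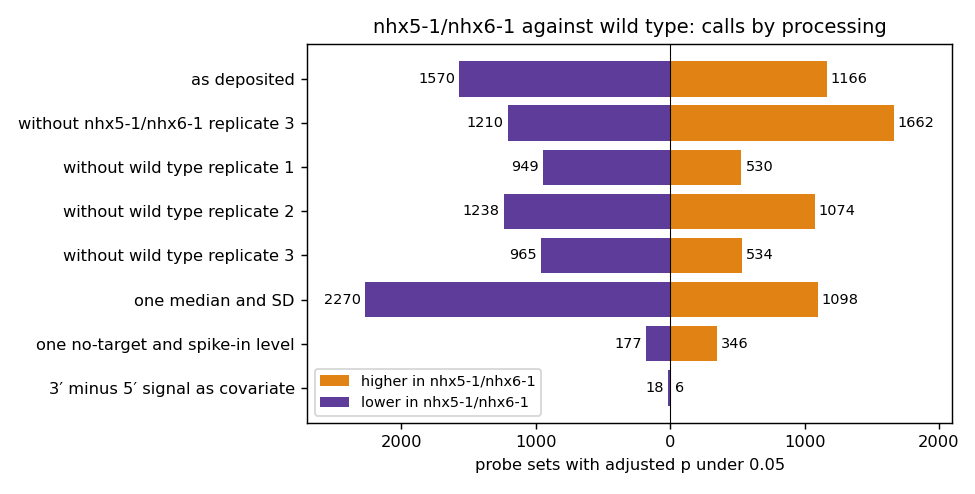
Number of probe sets past the threshold that were higher (right) or lower (left) in nhx5-1/nhx6-1 than in wild type, with the arrays as deposited and under 7 other settings. As deposited, 1166 were higher and 1570 lower, and under the 3′ minus 5′ covariate 6 were higher and 18 lower.

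Of the 30 leading genes, 8 also passed with the 3′ minus 5′ covariate: AT5G44020, AT1G04040, AT3G16670, MSRB6, AT1G06830, SWEET2, AT3G14395 and AT4G01390. Their differences with the covariate ran from -2.25 ± 0.37 for MSRB6 to 1.23 ± 0.18 for AT4G01390. Together with HYH (-0.89 ± 0.14 with the covariate) they passed under all 18 alternatives. In all, 21 probe sets did so, 5 higher and 16 lower, of which 13 carry 1 gene. The other 4 with 1 gene, chosen after their values were seen, were AT1G64380 (0.40 ± 0.05), AT1G26580 (0.54 ± 0.05), AT5G57760 (-0.76 ± 0.08) and AT2G03350 (-0.76 ± 0.07). AT1G64380, an ethylene response factor-type transcription factor, had 0.11, 0.09 and 0.13 in nhx5-1/nhx6-1, against -0.22, -0.40 and -0.25 in wild type. Its level was not particular to this double knockout, with means of 0.10 in nhx6-2, 0.03 in nhx5-2 and -0.14 in nhx5-2/nhx6-2. The alternatives reuse the same arrays, so their number is not a count of independent checks.

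The second double knockout carries other insertions in the same genes, and both are set against the same wild type arrays. A direct contrast of the 2 double knockouts does not use wild type. In it 86 probe sets differed, 0.378% of those tested, 28 higher and 58 lower in nhx5-1/nhx6-1 than in nhx5-2/nhx6-2. At an unadjusted p under 0.05 there were 2835. None of the 30 leading genes passed, and 7 had an unadjusted p under 0.05. For AT5G44020 the scores were 0.41, -0.17 and -0.12 in nhx5-1/nhx6-1 and -0.24, -0.25 and -0.13 in nhx5-2/nhx6-2, a difference of 0.25 with a 95% interval of -0.10 to 0.59. For SWEET2 the difference was -0.07, with an interval of -0.23 to 0.08, and for ATG8C it was 0.02 (-0.17 to 0.21). The widest gap among the leading genes was in AT2G41090, at 2.84, 2.24 and 3.42 in nhx5-1/nhx6-1, against 4.12, 4.14 and 3.57 in nhx5-2/nhx6-2, a difference of -1.11 with an interval of -1.76 to -0.46 and an adjusted p of 0.131.

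The genes that did differ between the double knockouts fell into distinct patterns of level. AT2G32500 had 1.26, 1.19 and 0.82 in nhx5-1/nhx6-1, against -0.77, -0.78 and -0.68 in nhx5-2/nhx6-2 (1.83, interval 1.64 to 2.02, adjusted p = 3.04e-07), while wild type had 1.31, 1.39 and 1.35. Its scores in the single knockouts were -0.63, -0.73 and -0.71 in nhx5-2 and 1.45, 1.35 and 1.30 in nhx6-2, so the arrays low in this gene were those of the 2 genotypes that carry nhx5-2. iqd21 and TUB5, a beta tubulin, were each 0.48 units higher in nhx5-1/nhx6-1 than in nhx5-2/nhx6-2, and against wild type nhx5-1/nhx6-1 differed by -0.26 and 0.06, neither past the threshold. In psbA the high group was nhx5-1/nhx6-1, at 2.14, 1.97 and 2.49, against 1.07, 1.38 and 0.96 in nhx5-2/nhx6-2 (1.06, interval 0.65 to 1.47, adjusted p = 0.0372). AT4G16870, a pseudogene in the reference table, had 0.37, 0.63 and 0.33 in nhx5-1/nhx6-1, against -0.30, -0.47 and -0.36 in nhx5-2/nhx6-2 (0.82, interval 0.59 to 1.05). Over the chloroplast-encoded list the median difference from wild type was 0.28 for nhx5-1/nhx6-1 and -0.07 for nhx5-2/nhx6-2, and 1 of its 69 genes, psbA, passed in the direct contrast.

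Lipid transfer family genes were among the transcripts lower in nhx5-1/nhx6-1 than in nhx5-2/nhx6-2. AT2G37870 had -0.16, 0.67 and -0.06 in nhx5-1/nhx6-1, against 1.50, 1.36 and 1.30 in nhx5-2/nhx6-2 (-1.24, interval -1.67 to -0.81, adjusted p = 0.0227), and wild type had -0.35, -0.36 and -0.40. AT3G53980 had -0.41, 0.11 and -0.21, against 1.51, 0.78 and 0.75 in nhx5-2/nhx6-2 (-1.18, interval -1.54 to -0.83). AT4G33550 (-0.84) and AT3G18280 (-0.72) belong to the same family. In AT2G37870, AT3G53980 and AT4G33550 replicate 2 was the highest nhx5-1/nhx6-1 array, and the other two lay closer to wild type than to nhx5-2/nhx6-2. AT5G51890, a peroxidase, had -0.15, 0.06 and -0.17 in nhx5-1/nhx6-1, against 0.78, 0.74 and 0.64 in nhx5-2/nhx6-2 (-0.80, interval -0.98 to -0.63, adjusted p = 0.000805), with wild type between them at 0.22, 0.28 and 0.30. The count of 86 was 345 without replicate 2 of nhx5-1/nhx6-1, 44 without its replicate 1, and 6, 16 and 18 without replicates 1, 2 and 3 of nhx5-2/nhx6-2.

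**Figure D5:**
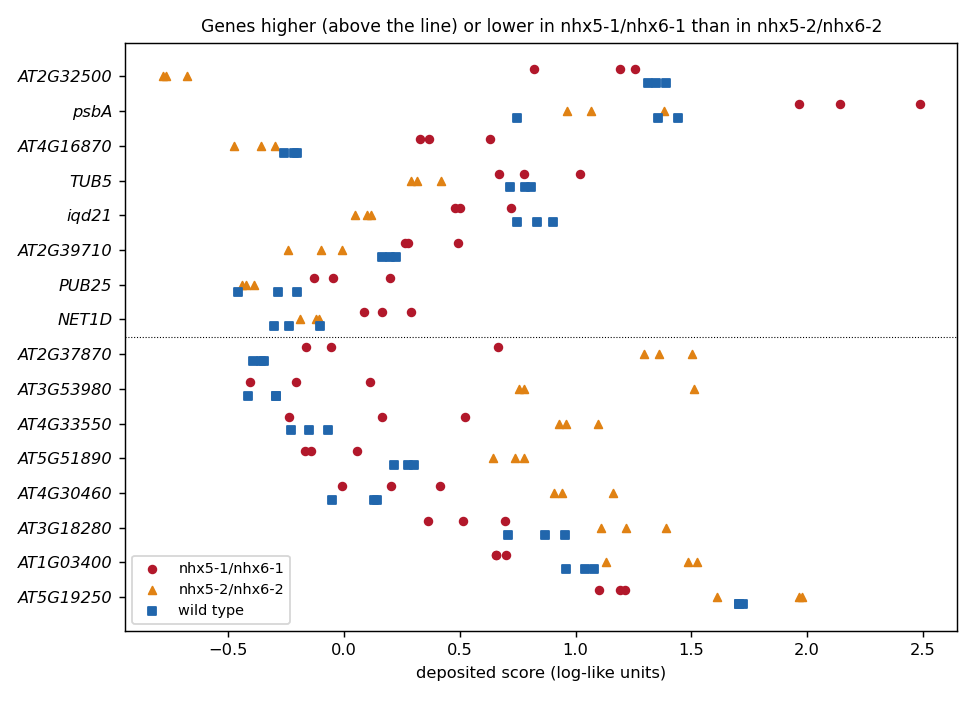
Deposited score (horizontal axis, log-like units) on each array for the 8 genes most above and the 8 most below nhx5-2/nhx6-2 in nhx5-1/nhx6-1, with nhx5-1/nhx6-1 as red circles, nhx5-2/nhx6-2 as orange triangles and wild type as blue squares. Of the 3 plotted genotypes nhx5-2/nhx6-2 was the low one in AT2G32500 (-0.77, -0.78 and -0.68) and the high one in AT2G37870 (1.50, 1.36 and 1.30).

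The neighbours of the insertions were listed from the order of genes on chromosome 1. Within 15 protein-coding genes on either side, 17 neighbours of NHX5 and 10 of NHX6 were measured. The counts below are to be set beside the 12.0% of all probe sets that changed. Near NHX5, 1 passed: EIF4A-2, a translation initiation helicase 10 genes away, had 1.52, 1.56 and 1.20 in nhx5-1/nhx6-1, against 2.11, 2.08 and 2.21 in wild type (-0.71 ± 0.09, adjusted p = 0.000265), and 1.60, 1.65 and 1.68 in nhx5-2/nhx6-2. Near NHX6, 2 passed. AT1G79720 had 0.00, 0.07 and -0.20 in nhx5-1/nhx6-1, against 0.54, 0.49 and 0.46 in wild type (-0.54 ± 0.08), and -0.05, -0.05 and 0.06 in nhx5-2/nhx6-2. AT1G79510 fell by 0.34 ± 0.09, and its mean was 1.18 in nhx5-2/nhx6-2, against 1.34 in wild type. These 3 genes were named after their values were seen.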

How the data were processed

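Transcripts were measured on 15 Affymetrix arrays, of which 6 (3 of nhx5-1/nhx6-1 and 3 of wild type) are compared here and 3 of nhx5-2/nhx6-2 serve as a second contrast. Values are the score the authors deposited for each array and probe set, on a log-like scale. The sources used here name no background correction, summarization, normalization or log base. The plan allowed for linear or log2 intensities, and the score was used untransformed.

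Of 22810 probe sets, 64 controls were left out of the tests. All 15 arrays entered a linear model with a mean for each genotype, in limma 3.58.1 in R 4.3.3 (lmFit, eBayes), with Benjamini-Hochberg adjustment over 22746 probe sets and a threshold of 0.05. Errors are model SEs unless named SD. With 3 arrays a group, the number of arrays limits precision. The script was tested on simulated data.

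Folds use the slope of 9 spike-in probe sets on log2 nominal concentration (1.5, 5, 25 and 100 pM, the array maker's values, assumed here), 0.681 units per doubling. The 9 older spike-in probe sets gave 0.614, so that 1 unit is 2.77-fold on the first and 3.09-fold on the second; the first was kept after both were seen.

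In the annotation given with the files, 13513 probe sets had 1 gene, 503 had several and 8730 had no entry. The reference gene table (TAIR10.1), used for names and gene order, held 13436 of the 13513. Product names given for bare locus numbers are background knowledge. Genes are named by rule: the 15 largest rises and falls with 1 gene, past the threshold and without overlap; up to 4 passing members of each list with the smallest p; and the 8 largest differences each way between the double knockouts. Other list members are given for the account of their list. The members, gene lists and rules were chosen with earlier results of these data known. Of 48 lists 14 had no measured gene. A gene counts once in a list. Mitochondrial genes were found by name.

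The alternatives were: the 6 compared arrays alone, a replicate block, a median shift, a median and SD scaling, quantile normalization, leaving out the dimmest 25% of probe sets, the 3′ minus 5′ signal as covariate, array weights, a trended robust prior, leaving out each array, leaving out both arrays of low SD (nhx5-1/nhx6-1 replicate 3 and nhx5-2 replicate 1), and 2 added after the data were seen. Array weights were computed gene by gene, after limma's default method had stopped before it converged.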

Additional observations from a re-analysis of the deposited data

Results flagged for a closer look

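These 16 genes passed in the direct contrast nhx5-1/nhx6-1 minus nhx5-2/nhx6-2, which tests whether the 2 double knockouts differ, and are those with the largest differences each way. Higher in nhx5-1/nhx6-1 were AT2G32500 (1.83), psbA (1.06), AT4G16870 (0.82), TUB5 (0.48), iqd21 (0.48), AT2G39710 (0.46), PUB25 (0.42) and NET1D (0.32). Lower were AT2G37870 (-1.24), AT3G53980 (-1.18), AT4G33550 (-0.84), AT5G51890 (-0.80), AT4G30460 (-0.80), AT3G18280 (-0.72), AT1G03400 (-0.71) and AT5G19250 (-0.68). Against wild type, psbA, AT4G16870, PUB25, NET1D, AT5G51890, AT3G18280 and AT5G19250 also passed in nhx5-1/nhx6-1. The double knockouts differ in both insertions. For AT2G32500 the mean was -0.74 in nhx5-2/nhx6-2, -0.69 in the single knockout nhx5-2 and 1.37 in nhx6-2, against 1.35 in wild type.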

How the results depend on the processing

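The 2736 changed probe sets became 1149 with the 6 compared arrays alone, 24 with the 3′ minus 5′ covariate, 6955 with array weights and 523 with one no-target and spike-in level, and 1479 to 2872 when each array was left out in turn. The 1166 higher became 382, 6, 3684 and 346 under those 4 settings, 629 with a median shift, 2190 without both arrays of low SD, 1812 without nhx5-1/nhx6-1 replicate 3 and wild type replicate 2, and 530 to 1662 without single arrays. The 1570 lower became 767, 18, 3271 and 177 under the first 4, and 949 to 1636 without single arrays. The 86 between the double knockouts became 5 with the 6 arrays of that contrast alone, 278 with one median and SD, 379 with quantile normalization, 132 without the dimmest probe sets, 4 with the covariate, 2751 with array weights, 392 without both arrays of low SD, 8 with one no-target and spike-in level, and 6 to 345 without single arrays. The 3′ minus 5′ difference of 0.480 was 0.606 with one median and SD. Array weights ran from 0.0856 for nhx5-1/nhx6-1 replicate 3 to 3.25 for wild type replicate 1. The causes of these moves were not tested.

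Same-numbered replicates of the compared genotypes had correlations of deviations of -0.10, 0.35 and 0.19, and those of different number -0.34 to 0.22. Deviations within a genotype depend on each other, so these few correlations cannot decide whether the numbers pair the arrays. The main model did not pair them. With the replicate number as a block 1042 probe sets rose and 1486 fell, and 26 differed between the double knockouts. All 30 leading genes kept their sign under the 18 alternatives. TUB5, which did not pass against wild type (0.06), ran from -0.0427 without nhx5-1/nhx6-1 replicate 1 to 0.132 without its replicate 3 when single arrays were left out, and it passed with array weights (0.22, adjusted p = 0.0169 in limma).

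The base of the score and its processing are unknown, 1327 of the changed probe sets do not carry exactly 1 annotated gene, and dim probe sets were rarely called (6 rises and 5 falls among the dimmest 25%).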

Other observations

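Among the 21 probe sets past the threshold under all 18 alternatives, 8 do not carry exactly 1 listed gene. The largest of these in each direction, chosen after their values were seen, were 261569_at, with 0.64, 0.88 and 0.49 in nhx5-1/nhx6-1, against 2.21, 2.06 and 2.12 in wild type (-1.46 ± 0.09), and 265122_at, with 0.68, 0.82 and 0.54, against -0.58, -0.53 and -0.49 in wild type (1.21 ± 0.06). The single knockouts lay between for 261569_at, with means of 1.47 in nhx5-2 and 1.18 in nhx6-2, and near wild type for 265122_at, with means of -0.59 in nhx5-2 and -0.44 in nhx6-2. 265122_at also passed between the double knockouts (0.40, interval 0.26 to 0.54, adjusted p = 0.0227).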
